A study of Mus musculus with 10 samples.

Results

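The slit diaphragm was examined through 9 genes that encode its adhesion molecules, scaffolds and channel: Nphs1, Kirrel, Kirrel2, Kirrel3, Cd2ap, Fat1, Magi2, Tjp1 and Trpc6. Every probe set that the platform annotation assigns to exactly 1 gene, and to 1 of these 9, was taken. That gave 12 probe sets for 7 genes, out of 45037 probe sets and 18193 genes in the table. Kirrel2 and Magi2 had no probe set under that rule and have no value here. Glomeruli of 5 Wt1 +/R394W mice, heterozygous knock-ins of the R394W change in the transcription factor Wt1, were compared with glomeruli of 5 Wt1 +/+ littermates. All 10 were males aged 27 days and backcrossed for 4 generations to FVB/N, and 1 array was hybridised per mouse. The submitters describe the knock-in animals as having little albumin in the urine and no mesangial lesions by light microscopy. In the text below the mice are mutants 1 to 5 and wild types 1 to 5.

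Podocytes are the epithelial cells that cover the glomerular capillaries with interlocking foot processes, and the slit diaphragm is the cell junction that closes the gap between neighbouring processes. Nephrin, the product of Nphs1, and the Neph proteins of the Kirrel genes are immunoglobulin-type adhesion molecules that meet in this gap, while Cd2ap, Magi2 and the tight junction protein ZO-1 (Tjp1) hold their tails to the actin skeleton and to signalling enzymes. Wt1 binds DNA through zinc fingers, is needed for podocyte formation, and the R394W change lies in a zinc finger and is known from patients with Denys-Drash syndrome.

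The labelled tissue was checked first. Podocyte markers other than the 9 genes were strongly expressed, with a mean over 25 measured genes of 11.95 to 12.23 log2 units in mutants and 12.15 to 12.34 in wild types. Carry-over of tubule differed widely within each genotype: the mean of 20 proximal tubule markers ran between 7.07 and 10.67 in mutants and between 6.98 and 9.60 in wild types. Of these markers 17 were higher in mutants and 3 lower, with a median difference of 0.43 log2 units. Among 20 distal nephron markers 15 were higher and 5 lower, with a median of 0.13. Markers of a list were read in the same mice and are not separate evidence. Of the podocyte markers, 2 of 25 passed the test and both were lower in mutants (Plce1, by -0.74, adjusted p = 0.00865, and Thsd7a, by -0.70, adjusted p = 0.0314, limma), where 1.26% of all genes passed in either direction. At an unadjusted p under 0.05 (limma) there were 9 of 25 (36%), 6 lower and 3 higher in mutants, where 11% of all genes reached it. The list was chosen with earlier results of these data known, so this share is no test. Of the other lists, 1 of 4 erythroid (Slc25a37) and 1 of 14 leukocyte markers (Csf1r) passed and were lower in mutants, 1 of 20 endothelial (Sost) and 2 of 10 parietal markers (Lgals1 and Cp) passed and were higher, and none passed among the 14 mesangial, 20 proximal and 20 distal nephron markers. The mean of the parietal list lay between 8.62 and 9.08 in mutants, above the 8.33 to 8.60 of the wild types. That mean includes Lgals1 and Cp, which differed by 1.08 and 1.18, and it was not taken without them. Of the 10 parietal markers 6 lay above 0 and 4 below, with 2 higher and 2 lower at an unadjusted p under 0.05 (limma). The mesangial mean lay between 11.16 and 11.43 in mutants, above the 10.95 to 11.14 of the wild types, and the erythroid mean lay between 6.66 and 7.11 in mutants, below the 7.13 to 7.82 of the wild types. The part of these lists in the results below was not tested, except that the proximal tubule score was used as a covariate and the podocyte mean as a scale. In whole glomeruli, fewer cells of a type and less RNA per cell cannot be told apart.

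None of the 12 slit diaphragm probe sets differed between Wt1 +/R394W and Wt1 +/+ glomeruli at an adjusted p under 0.05 (limma, Benjamini-Hochberg over all probe sets), where 0.853% of all probe sets passed. At an unadjusted p under 0.05 there were 2 of 12, 1 of Kirrel and 1 of Kirrel3, both lower in mutants, where 9.36% of all probe sets reached that level. The median difference of the 12 was -0.09 log2 units, with 4 above and 8 below 0, against a median of 0.0043 over 18193 genes with 1 probe set each. The 12 count Cd2ap and Kirrel3 3 times and Kirrel 2 times. By the brightest probe set of each gene, Nphs1, Kirrel and Cd2ap differed by -0.08, -0.33 and -0.09. Kirrel3, Fat1, Tjp1 and Trpc6 differed by 0.08, 0.08, 0.03 and 0.28. The lean of the 12 below 0 thus depends on how the probe sets of a gene are counted. The other Kirrel3 probe sets, which were dim like the brightest, differed by -0.17 and -0.15. In all 12 probe sets the values of the genotypes overlapped, whereas they were separate in 2.78% of all probe sets. Differences are given in log2 units as Wt1 +/R394W minus Wt1 +/+, each from 5 mice per genotype and with the 95% confidence interval of the limma fit. The interval, and not the missed threshold, says how large a difference in signal of that probe set these arrays leave possible.

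**Figure D1:**
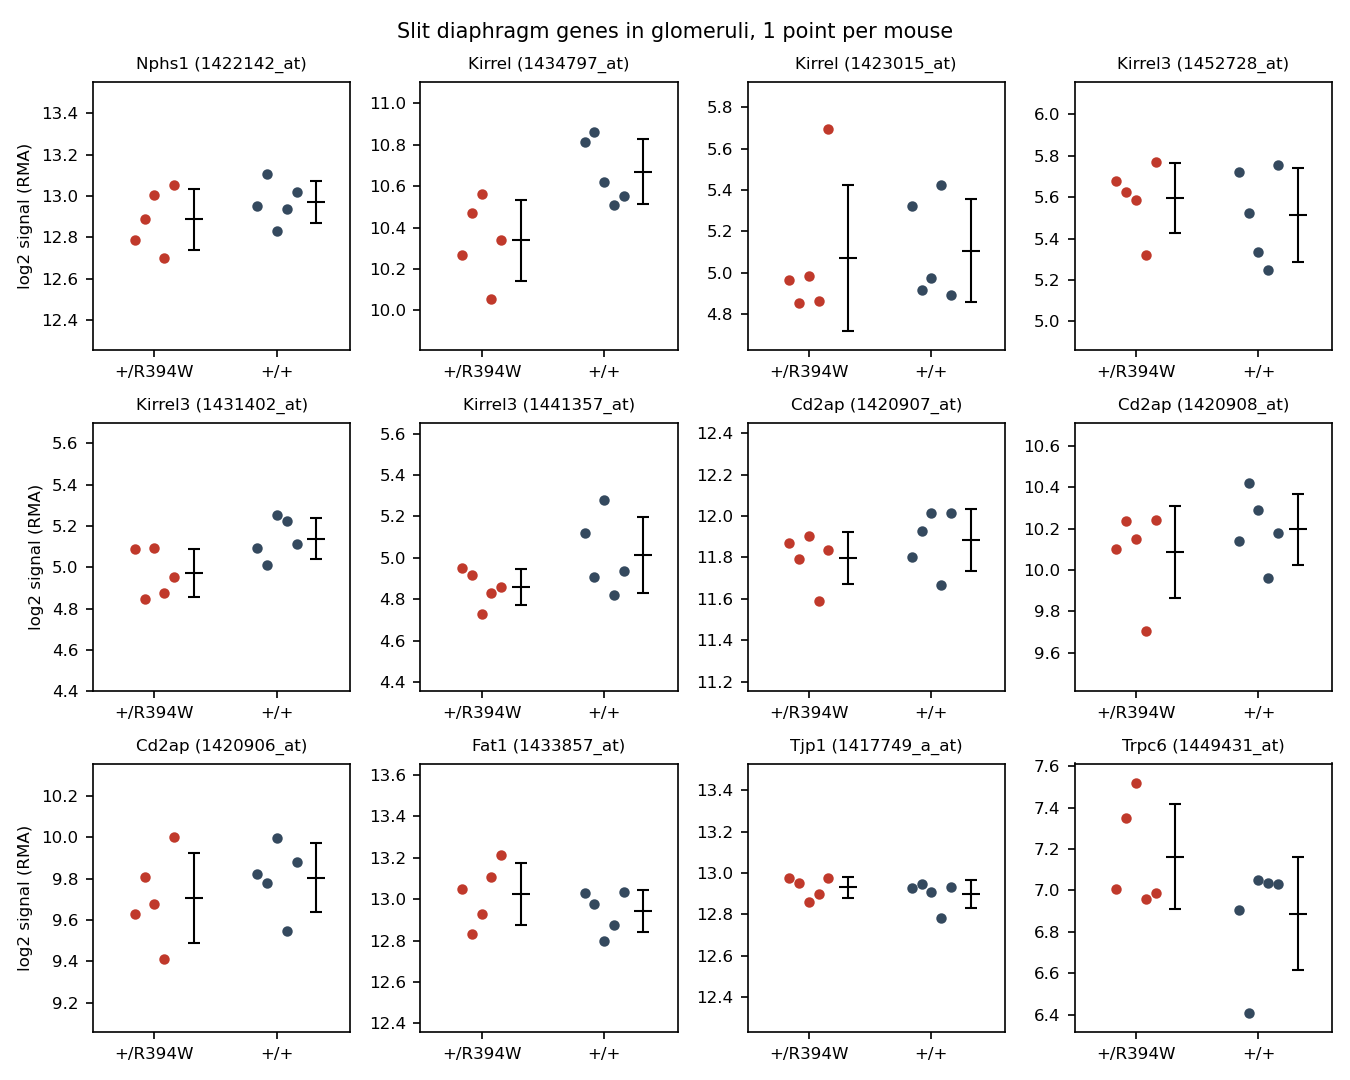
Log2 signal of each slit diaphragm probe set (vertical axes, all spanning the same number of log2 units) in 5 Wt1 +/R394W mice (red, left) and 5 Wt1 +/+ mice (dark, right), with 1 point per mouse and the mean with its SD as bars. The genotypes overlap in all 12 panels, and the offset is widest for Kirrel 1434797_at, where mutants average 10.34 and wild types 10.67.

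Transcripts of Nphs1, whose product nephrin forms the core of the junction, differed by less than the spread between mice. Its only probe set (1422142_at, chromosome 7) read 12.79, 12.89, 13.01, 12.70 and 13.05 log2 units in mutants 1 to 5, against 12.95, 13.11, 12.83, 12.94 and 13.02 in wild types 1 to 5. The ranges overlap, with mutants 1 and 4 below every wild type. The means were 12.89 ± 0.15 in mutants and 12.97 ± 0.10 in wild types (SD, n = 5 each). The difference of -0.08 had an interval of -0.26 to 0.10 and an adjusted p of 0.820, and on the linear scale the interval runs from -16.6% to 6.84%. Values of this probe set lie high on the scale, whose maximum in the table is 14.89, and scanner saturation flags were not used here. With each mouse left out in turn, the Nphs1 difference ran from -0.12 (without mutant 5) to -0.04 (without mutant 4).

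Promoter sequences are printed for Nphs1 and for Kirrel and Trpc6, which had the differences farthest from 0 in each direction, because the allele alters a DNA-binding protein. The 3 sequences are RefSeq windows of build GRCm38.p6, written 5′ to 3′ along the gene's strand, from 250 bases before to 50 bases after the annotated start. Capitals mark GTGGGNG, searched on both strands; it is the core that sites of the WT1 and EGR zinc finger families share, and on the opposite strand it reads CNCCCAC.
Nphs1 (chr7:30459808-30460107, plus strand): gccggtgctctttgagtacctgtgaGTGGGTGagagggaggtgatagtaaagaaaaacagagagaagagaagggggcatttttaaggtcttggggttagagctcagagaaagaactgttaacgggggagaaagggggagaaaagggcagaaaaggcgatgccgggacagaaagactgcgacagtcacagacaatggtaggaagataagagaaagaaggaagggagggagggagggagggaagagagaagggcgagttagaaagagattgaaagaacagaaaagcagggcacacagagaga
Kirrel (chr3:87174488-87174787, minus strand): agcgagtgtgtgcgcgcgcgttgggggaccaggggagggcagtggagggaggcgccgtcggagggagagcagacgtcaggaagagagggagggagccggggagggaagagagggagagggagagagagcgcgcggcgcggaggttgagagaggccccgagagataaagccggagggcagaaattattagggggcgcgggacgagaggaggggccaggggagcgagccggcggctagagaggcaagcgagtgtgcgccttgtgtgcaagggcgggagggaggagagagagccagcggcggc
Trpc6 (chr9:8543892-8544191, plus strand): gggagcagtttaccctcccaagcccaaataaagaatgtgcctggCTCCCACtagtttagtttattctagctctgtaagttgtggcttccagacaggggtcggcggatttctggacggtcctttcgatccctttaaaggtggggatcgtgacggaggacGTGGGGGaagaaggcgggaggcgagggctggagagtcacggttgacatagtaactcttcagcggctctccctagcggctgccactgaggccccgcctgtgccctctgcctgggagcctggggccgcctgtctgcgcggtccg

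Nphs1 held 1 match, Trpc6 held 2 and Kirrel held none. Windows were present for 8 of the 9 genes, 9 windows in all, and 7 of these 9 held the motif, against 31.6% of 32851 RefSeq promoter windows of the same length. The longer form GCGTGGGNG, in which the shorter one is contained, was found in 1 of the 9, a window of Magi2, and in 1.90% of all windows. These matches describe letters in short windows and were not tied to binding. Nphs1 and Kirrel2 are neighbours on chromosome 7 and run in opposite directions, and the Kirrel2 window held 1 match. Kirrel3 was the gene with no window in the table.

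The Neph family gave the difference farthest from 0 among the 9 genes. Kirrel encodes Neph1, the binding partner of nephrin in the junction. Its brighter probe set (1434797_at, chromosome 3) read 10.27, 10.47, 10.56, 10.05 and 10.34 log2 units in mutants 1 to 5, against 10.82, 10.86, 10.62, 10.51 and 10.55 in wild types 1 to 5. Mutants 2 and 3 are the highest of their genotype, and only mutant 3 reaches into the wild-type range, above wild types 4 and 5. The means were 10.34 ± 0.20 in mutants and 10.67 ± 0.16 in wild types (SD, n = 5 each). The difference of -0.33 ± 0.11 (SE) had an interval of -0.56 to -0.10, or -32.3% to -6.74% on the linear scale. It did not pass over all probe sets (limma, unadjusted p = 0.00897, adjusted p = 0.273). For this probe set alone, exact permutation of the mice gave p = 0.0238 (two-sided), and no arrangement of 5 and 5 mice can give less than 0.00794. Over 20 other settings the difference stayed between -0.39 and -0.23 and the adjusted p between 0.203 and 0.720.

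The dimmer Kirrel probe set (1423015_at) did not follow the brighter one. It read 4.97, 4.85, 4.98, 4.86 and 5.70 log2 units in mutants, against 5.32, 4.92, 4.97, 5.43 and 4.89 in wild types. Its mean of 5.09 over all arrays is under the median of all probe sets (6.36), and mutant 5 alone stands above the other mutants. The difference was -0.03, with an interval of -0.40 to 0.34 and an adjusted p of 0.971. A probe set this dim carries little information on a change in Kirrel.

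Kirrel3 encodes Neph2, a related adhesion molecule best known from neurons. All 3 of its probe sets (chromosome 9) were also dim, with values of 4.73 to 5.77 log2 units in mutants and 4.82 to 5.76 in wild types. They did not move together: 1452728_at differed by 0.08 (interval -0.17 to 0.34), 1431402_at by -0.17 (interval -0.33 to -0.01) and 1441357_at by -0.15 (interval -0.35 to 0.04). The unadjusted p of 1431402_at was 0.0440 and its adjusted p 0.513. Adjusted p-values of the other pair were 0.884 and 0.661. Signals this low say little of whether Kirrel3 is transcribed in glomeruli at all.

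Fat1, a giant protocadherin of the junction that links cell contact to actin, likewise differed by less than the spread between mice. Its probe set (1433857_at, chromosome 8) read 13.05, 12.83, 12.93, 13.11 and 13.21 log2 units in mutants 1 to 5, against 13.03, 12.98, 12.80, 12.87 and 13.04 in wild types 1 to 5. Mutants 1, 4 and 5 lie above every wild type and the other two inside the wild-type range. The difference was 0.08, with an interval of -0.10 to 0.26 (-6.60% to 19.9% on the linear scale) and an adjusted p of 0.825. With each mouse left out in turn, the Fat1 difference ran from 0.03 (without mutant 5) to 0.13 (without mutant 2).

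Of the cytoplasmic adaptors, Cd2ap was read by 3 probe sets (chromosome 17) and Tjp1 by 1. Cd2ap binds the tails of slit diaphragm proteins and links them to actin and to endocytosis. Its brightest probe set (1420907_at) read 11.87, 11.79, 11.91, 11.59 and 11.84 log2 units in mutants, against 11.80, 11.93, 12.02, 11.67 and 12.02 in wild types. Mutant 4 and wild type 4 are the lowest of their genotypes here and also in 1420908_at and 1420906_at. The 3 probe sets differed by -0.09, -0.11 and -0.10, with intervals from -0.28 to 0.10, from -0.36 to 0.14 and from -0.35 to 0.15. Their adjusted p-values lay between 0.823 and 0.849. Without mutant 4 they differed by -0.03, -0.01 and -0.03, and without wild type 4 by -0.14, -0.17 and -0.16. These probe sets read the same RNA of the same mice and are not separate evidence.

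Tjp1 encodes ZO-1, a PDZ scaffold of tight junctions that is also found at the slit diaphragm and in many other epithelia and endothelia. Its probe set (1417749_a_at, chromosome 7) had the narrowest spread of all 12, at 12.98, 12.95, 12.86, 12.90 and 12.97 log2 units in mutants and 12.93, 12.95, 12.91, 12.78 and 12.93 in wild types. Wild type 4 is the lowest mouse and the remaining 9 lie close together. The difference of 0.03 had an interval of -0.09 to 0.15, or -6.09% to 11.2% on the linear scale, and an adjusted p of 0.908. With each mouse left out in turn, the Tjp1 difference ran from 0.0021 (without wild type 4) to 0.05 (without mutant 3). The Tjp1 interval was the narrowest of the 12 in signal, though these values also lie high on the scale.

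Trpc6, a cation channel of the slit diaphragm in which gain-of-function changes cause hereditary glomerulosclerosis in humans, had the highest positive difference. Its probe set (1449431_at, chromosome 9) read 7.01, 7.35, 7.52, 6.96 and 6.99 log2 units in mutants 1 to 5, against 6.90, 6.41, 7.05, 7.04 and 7.03 in wild types 1 to 5. Mutants 2 and 3 stand above all other mice, wild type 2 stands below them, and the remaining 7 mice overlap. The means were 7.16 ± 0.25 in mutants and 6.89 ± 0.27 in wild types (SD, n = 5 each). The difference of 0.28 had an interval of -0.05 to 0.60, an adjusted p of 0.619 and an exact two-sided permutation p of 0.190. Without wild type 2 the difference was 0.16, and over 20 other settings it ran from 0.16 to 0.38 with adjusted p between 0.307 and 0.816.

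**Figure D2:**
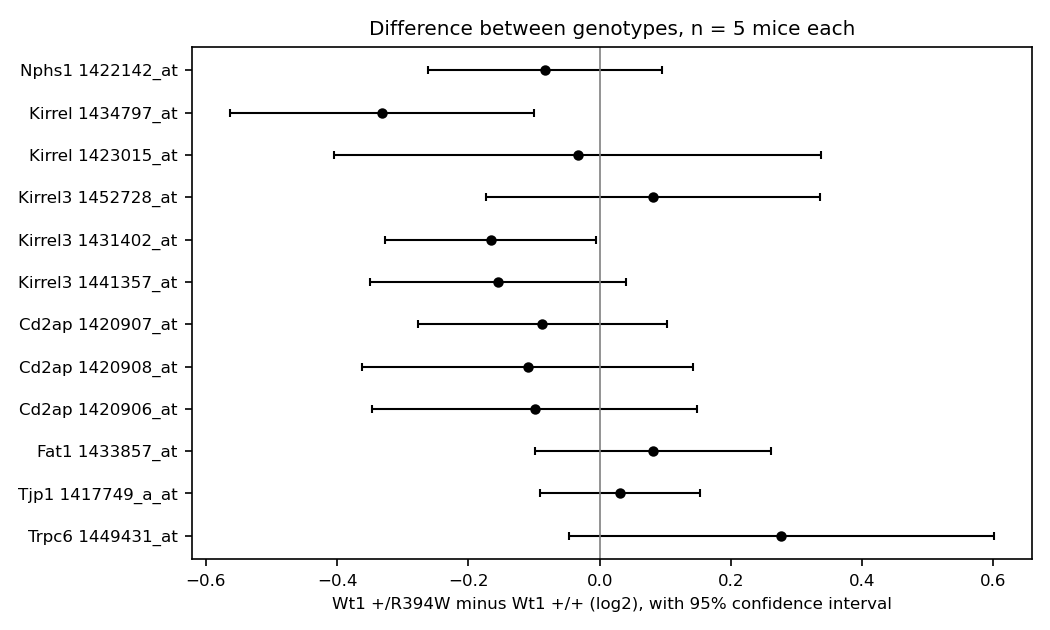
Difference between Wt1 +/R394W and Wt1 +/+ glomeruli (horizontal axis, log2 units) for each of the 12 slit diaphragm probe sets, as points with 95% confidence intervals from limma (n = 5 mice each). Only the intervals of Kirrel 1434797_at (-0.56 to -0.10) and Kirrel3 1431402_at (-0.33 to -0.01) leave out 0, and neither passed after adjustment.

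Each interval describes the difference in RMA signal of 1 probe set, and coverage is not joint over the 12. It need not bound the change in transcript for the 4 dim probe sets, since RMA compresses changes of dim genes. The same holds for Nphs1, Fat1 and Tjp1, which lie high on the scale, where saturation was not checked. Across the 12 probe sets the lowest limit was -0.56, for Kirrel, and the highest 0.60, for Trpc6. For comparison, Wt1 itself (1425995_s_at, chromosome 2) read 11.60, 11.74, 11.85, 11.43 and 11.54 log2 units in mutants, against 11.41, 11.40, 11.45, 11.06 and 11.19 in wild types, and its difference of 0.33 did not pass either (adjusted p = 0.244). A missense allele need not alter the amount of transcript, so the Wt1 values do not check the genotype labels. None of the 9 genes lies on chromosome 2, where Wt1 and any flanking sequence carried along with the knock-in are found.

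The tubule content of each preparation was set beside the members. Mutant 4 had the highest proximal tubule score (10.67) and the lowest mutant value of Nphs1, the brighter Kirrel probe set, all 3 Cd2ap probe sets and Trpc6. Wild type 4, with the highest wild-type score (9.60), had the lowest wild-type value of that Kirrel probe set, the 3 Cd2ap probe sets and Tjp1. Not all members followed: Fat1 read 13.11 in mutant 4, below mutant 5 alone among mutants. Trpc6 read 7.04 in wild type 4, below wild type 3 alone among wild types. Tjp1 in mutant 4 and Nphs1 in wild type 4 were not the lowest of their genotypes. Wt1, not a member, was the lowest of its genotype in both mice (11.43 and 11.06). With genotype in the model, Nphs1 changed by -0.08 log2 units per unit of the score (interval -0.15 to -0.01, unadjusted p = 0.0304, adjusted p = 0.485, limma), Cd2ap 1420906_at by -0.12 per unit (interval -0.21 to -0.03, unadjusted p = 0.0149, adjusted p = 0.375) and the dim Kirrel3 1452728_at by -0.11 per unit (interval -0.20 to -0.01, unadjusted p = 0.0371, adjusted p = 0.509). Slopes were -0.03 for Kirrel 1434797_at and -0.09 for Cd2ap 1420908_at (adjusted p = 0.882 and 0.606). Those of Tjp1 and Fat1 were -0.02 and -0.04. None of the 12 slopes passed, where 1.12% of all probe sets did. Mutant 5 and wild type 5, the mice with the least tubule signal (7.07 and 6.98), are farthest from the median score. Without them the slopes were -0.14 for Nphs1, -0.25 for Kirrel 1434797_at, -0.28 for Cd2ap 1420908_at and -0.17 for Cd2ap 1420906_at, with adjusted p-values of 0.440, 0.187, 0.164 and 0.491, so the size of these slopes depends on those 2 mice. With the score as a covariate the genotype difference was -0.05 for Nphs1 and -0.32 for Kirrel 1434797_at (adjusted p = 0.827 and 0.273). Over 20 other settings the adjusted p of Nphs1 ran from 0.686 to 0.933.

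**Figure D3:**
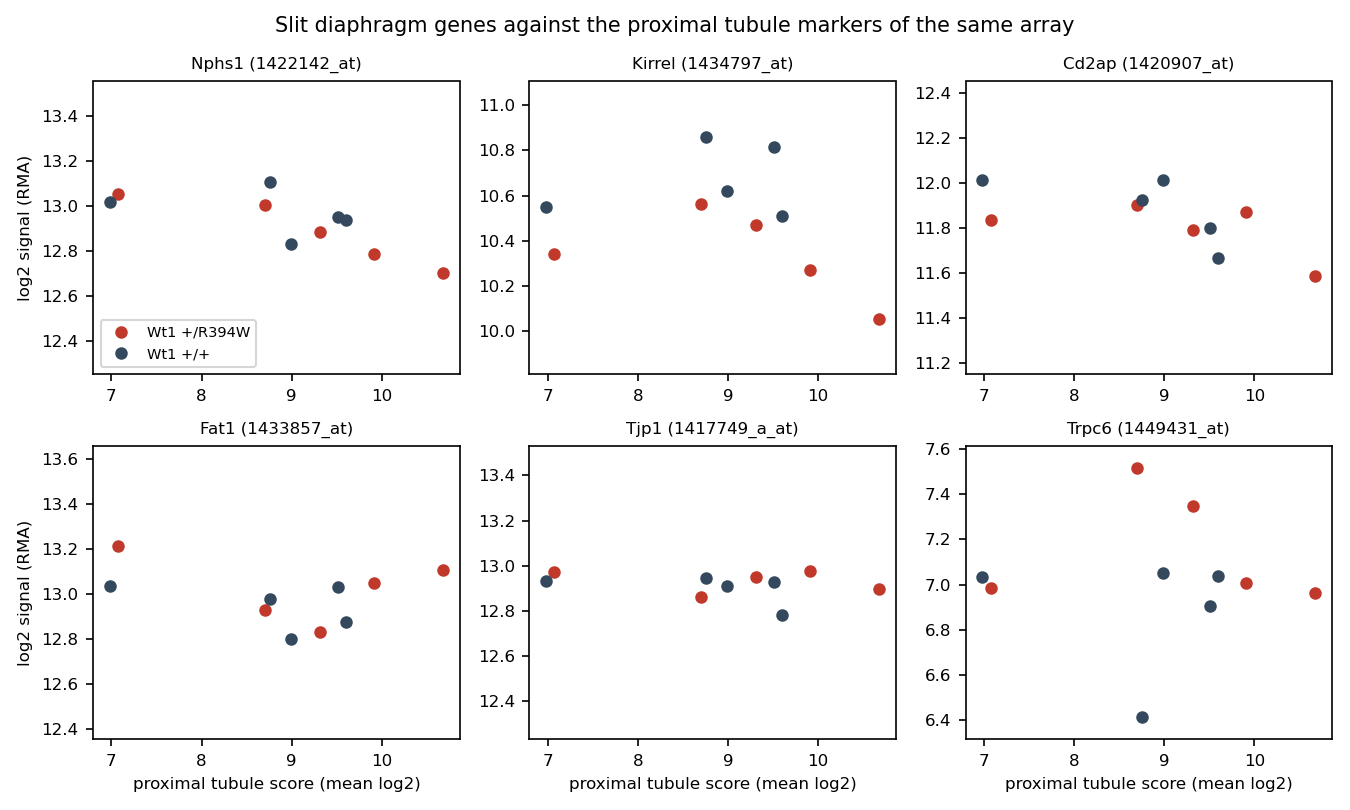
Log2 signal of 6 slit diaphragm probe sets (vertical axes, all spanning the same number of log2 units) against the mean of 20 proximal tubule markers on the same array (horizontal axis, log2 units), for 5 Wt1 +/R394W mice (red) and 5 Wt1 +/+ mice (dark). At the right end mutant 4, with a score of 10.67, is the lowest mutant for Nphs1, Kirrel, Cd2ap and Trpc6, but not for Fat1 or Tjp1.

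A second scale set each array against its own podocyte markers, a choice made after seeing the data. This scale adds the same amount to every difference, since the 25 markers had a mean difference of -0.10, or -0.04 without Plce1 and Thsd7a, the markers called lower. The median of all genes became 0.10, Nphs1 differed by 0.02 and Kirrel 1434797_at by -0.23 (adjusted p = 0.933 and 0.242). Trpc6 differed by 0.38 (adjusted p = 0.307). The median of all genes moved by the same amount, so the place of a gene above or below it could not change. This scale therefore cannot test whether a member differs from the bulk of genes.

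Within genotypes, the gene whose mouse-to-mouse pattern was most like that of Nphs1 was Cog6, a subunit of a Golgi tethering complex. Likeness was the Pearson correlation of values centred within genotype over the 10 arrays, ranked over 18192 genes with 1 probe set each. Cog6 reached 0.96, followed by Epha2 (0.94), Rprd1b (0.92), Phlda1 (0.92) and Cep290 (0.92). These 5 were picked as the highest of many, so the values describe the ranking only. The part of the tubule content of the arrays in these correlations was not tested. Among the other members the correlation was 0.65 for Kirrel (rank 846), 0.57 for Kirrel3, 0.38 for Cd2ap, 0.24 for Fat1, 0.17 for Tjp1 and -0.07 for Trpc6.

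The wider slit diaphragm network was read through 78 genes that encode kinases, adaptors, polarity proteins, junction molecules and actin regulators known to act with these proteins. The list was chosen with earlier results of these data known, and the shares over all genes include dim ones. Its shares are therefore no test of the network. Of the 72 that were measured none passed the test, against the 1.26% of all genes given above, using 1 probe set per gene. At an unadjusted p under 0.05 there were 14 of 72 (19.4%), 6 higher and 8 lower in mutants, where 11% of all genes reached it, 5.62% higher and 5.38% lower. The median difference was 0.0029, with 37 above and 35 below 0, against 0.0043 over all genes. In 5 of the 72 (6.94%) the genotypes did not overlap, against 3.67% of all genes, and in each of these 5 the mutants were lower. The 5 were Fyn, Ddn, Nck2, Pard6b and Jam2. After these and Cldn5, the next smallest p belonged to Iqgap1, Cgnl1 and Enah, all higher in mutants. They differed by 0.39, 0.24 and 0.27, with overlapping genotypes (limma, adjusted p = 0.262, 0.286 and 0.362).

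Fyn, the Src-family kinase that phosphorylates the tail of nephrin, came closest to the threshold. Its brighter probe set (1417558_at) read 11.20, 11.23, 11.29, 10.89 and 10.95 log2 units in mutants 1 to 5, against 11.55, 11.69, 11.57, 11.46 and 11.36 in wild types 1 to 5. Every mutant is below every wild type, with mutants 4 and 5 lowest. The difference was -0.42 (interval -0.62 to -0.21), with an adjusted p of 0.0833 and an exact permutation p of 0.00794, the smallest this design can give. A second Fyn probe set (1448765_at) differed by -0.28 with an adjusted p of 0.510 and overlapping genotypes.

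Nck2, an SH2 and SH3 adaptor that binds phosphorylated nephrin and recruits actin regulators, read 9.98, 10.04, 10.16, 9.85 and 10.17 log2 units in mutants, against 10.40, 10.26, 10.46, 10.20 and 10.47 in wild types. The highest mutant lies just under the lowest wild type. The difference was -0.32 in this probe set, 1416796_at (interval -0.50 to -0.14, adjusted p = 0.140). It was -0.25 in 1416797_at and -0.08 in the dim 1429481_at (adjusted p = 0.675 and 0.784), with overlapping genotypes in both. Ddn, which encodes dendrin, a podocyte protein that binds nephrin and Cd2ap, read 11.99, 11.92, 12.07, 11.89 and 12.19 in mutants, against 12.19, 12.55, 12.39, 12.38 and 12.25 in wild types. Mutant 5 and wild type 1 nearly touch. The difference for Ddn was -0.34 (interval -0.52 to -0.16, adjusted p = 0.120).

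Pard6b, a subunit of the PAR polarity complex, differed by -0.34 in 1423174_a_at (adjusted p = 0.147) and by -0.34 in 1423175_s_at (adjusted p = 0.190), with separate genotypes in both. It lies on chromosome 2, the chromosome of Wt1. Jam2, a junctional adhesion molecule, differed by -0.57 (1436568_at, adjusted p = 0.156) and -0.50 (1449408_at, adjusted p = 0.0863), again with separate genotypes, while 3 further probe sets differed by -0.46, -0.31 and -0.01 and overlapped. Cldn5, a claudin of podocytes and of endothelium, differed by -0.50 with overlapping genotypes (adjusted p = 0.202). Both Jam2 and Cldn5 are also endothelial genes. Endothelial markers averaged 10.93 to 11.23 in mutants and 10.97 to 11.19 in wild types. Of these 20 markers 14 were below and 6 above 0, with a median difference of -0.09. At an unadjusted p under 0.05 there were 5 lower and 1 higher, which was Sost, at 1.61, and their part in these differences was not tested.

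**Figure D4:**
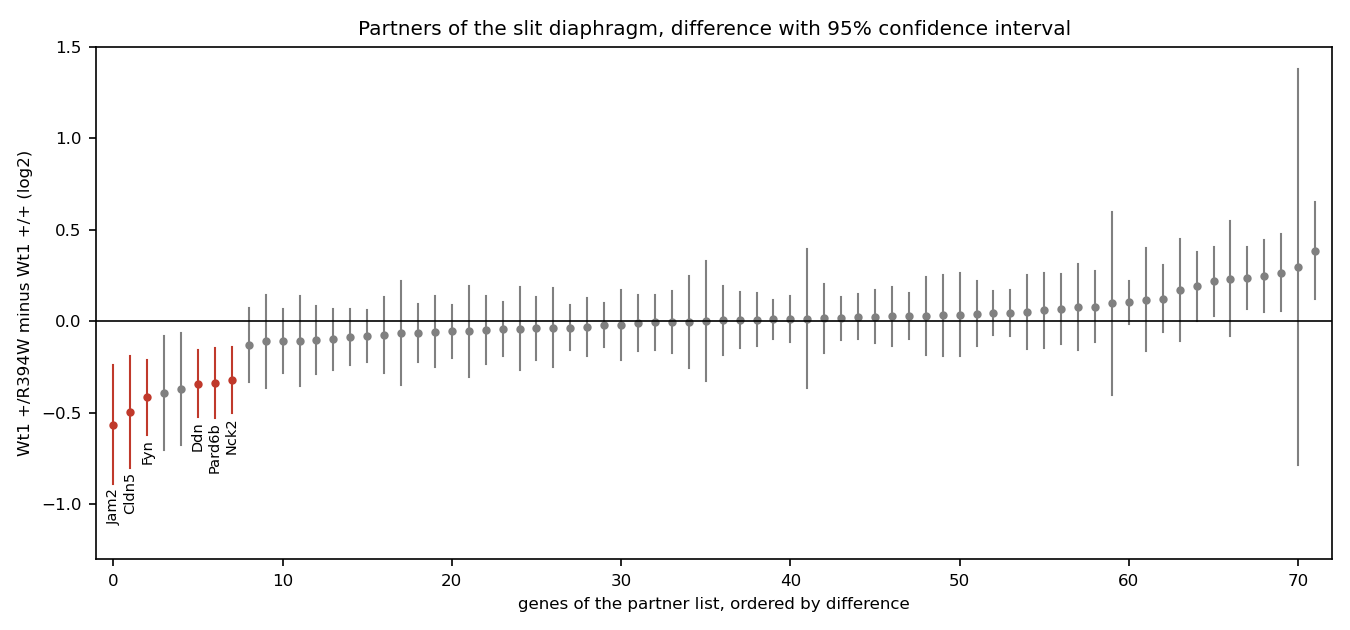
Difference between Wt1 +/R394W and Wt1 +/+ glomeruli (vertical axis, log2 units) for the 72 measured genes of the partner list, ordered from lowest to highest, with 95% confidence intervals from limma. The 6 genes with the smallest p (red, named) all lie below 0, between -0.57 for Jam2 and -0.32 for Nck2, and none passed after adjustment. Of the 72 genes, 37 lie above 0 and 35 below.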

How the data were processed

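Bead perfusion through the heart was used to isolate glomeruli, per the labels. Total RNA from 1 mouse was the starting material for each array, and biotin was the label. The deposited values are log2 expression values made with RMA by the authors, per the submitters' processing notes (version and settings not given in the sources used here). RMA quantile-normalizes arrays and compresses changes of dim genes. Array medians ran from 6.31 to 6.39, correlations between arrays from 0.985 to 0.997, and no 2 arrays were identical. All columns were assigned by accession, with 0 columns of other samples.

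The table holds 45101 probe sets, and 64 controls of the manufacturer were set aside. The annotation named 1 gene for 34945 of the rest, several for 932 and none for 9160; symbols were checked by gene number against RefSeq (GRCm38.p6), with 0 updates. For a gene outside the 9 members, the brightest probe set on average stood for the gene. The limma package (version 3.58.1, in R version 4.3.3) was fitted over all 45037 probe sets with genotype as its sole term, two-sided, with Benjamini-Hochberg adjustment and a threshold of 0.05; the step was tested on simulated data. Single values were also tested by exact permutation over 252 arrangements of mice. The scores are means of marker lists per array. Partners were named by the 6 smallest p. Members, partner and marker lists were chosen with earlier results of these data known. The wild types are described as littermates in the design text, and which mice shared a litter is not given in the sources used here. The number of arrays limits the precision. Figures were drawn with matplotlib (version 3.10.9).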

Additional observations from a re-analysis of the deposited data

Results flagged for a closer look

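In 4 of 38 groups of 5 mice (19 probe sets in 2 genotypes), 1 mouse stood apart by a gap of more than 0.71 of the range of its group. Chance marks about 1 in 20 such groups. Mutant 5 read 5.70 log2 units for the dim Kirrel probe set 1423015_at, against 4.85 to 4.98 in the other mutants. Mutant 4 read 9.71 for Cd2ap 1420908_at, against 10.10 to 10.24 in the other mutants, and it is the mouse with the highest proximal tubule score (10.67). Wild type 4 read 12.78 for Tjp1, against 12.91 to 12.95 in the other wild types. Wild type 2 read 6.41 for Trpc6, against 6.90 to 7.05 in the other wild types.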

How the results depend on the processing

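The count of called slit diaphragm probe sets was 0 under all 21 other settings, and that of called partner genes was 0 as well. These settings were other scalings, a filter on dim probe sets, other variance models, array weights, removal of probe sets ending in _x_at, _s_at or _a_at, gene means, the tubule covariate, subsets of mice and each mouse left out. The smallest adjusted p of any partner gene ran from 0.0523 without mutant 5 to 0.156 without mutant 4. Of 235 recomputed differences of single probe sets, 228 kept their sign and none was called. The sign turned for Nphs1 (0.016), Kirrel 1423015_at (0.065) and Cd2ap 1420907_at (0.011) with each array centred on its podocyte markers, which adds the same 0.10 to every difference and so turns any that lies just below 0, and for Kirrel 1423015_at without mutant 2, mutant 4, wild type 1 or wild type 4, where its values with each mouse left out ran from -0.19 (without mutant 5) to 0.046 (without wild type 4). Slopes on the tubule score turned for Kirrel 1423015_at (0.084), Kirrel3 1431402_at (-0.033) and Fat1 (0.10) without the 2 mice farthest from the median score. The cause was not tested. Over all 45037 probe sets, 384 passed. The count was 110 with only the 7 mice of adjacent animal numbers (mutants 1 to 4, wild types 2 to 4), 126 with a block for each run among those numbers, 242 without wild type 1, and 216 to 301 over all mice left out in turn, with the lowest count without wild type 4. No paired analysis was possible because the labels give mice of the 2 genotypes no shared replicate numbers. Low signal over background limits what the 4 dim probe sets of Kirrel and Kirrel3 can show.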

Other observations

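Relatives of the members in the partner list did not pass the test either. The channel genes Trpc1, Trpc4 and Trpc5 differed between Wt1 +/R394W and Wt1 +/+ glomeruli by 0.01, -0.01 and -0.06 log2 units, with adjusted p-values of 0.968, 0.979 and 0.852, and Trpc5 was dim (mean 3.54). The protocadherin genes Fat2, Fat3 and Fat4 differed by -0.05, -0.11 and 0.12 (adjusted p = 0.858, 0.750 and 0.840). The scaffold gene Tjp3 differed by 0.0046 and Magi1 by 0.08 (adjusted p = 0.993 and 0.841), and Magi3 averaged 9.27 in mutants and 9.02 in wild types, a difference of 0.25 that did not pass (adjusted p = 0.373). Cdh3, the P-cadherin gene, averaged 6.11 in mutants and 6.14 in wild types (adjusted p = 0.935). Fat2, Fat3, Tjp3 and Cdh3 averaged 6.02, 4.67, 5.64 and 6.12 over all arrays, under the median of all probe sets (6.36). Signals this low, like that of Trpc5, carry little information on a change.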
